A study of Mus musculus with 24 samples.

Results

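Long noncoding RNAs (lncRNAs) that were well expressed in the mouse prefrontal cortex (PFC) were followed over 6 groups of animals. A row of the gene table was taken as a member when the authors had classed it as lncRNA and its normalized count averaged at least 100 over the 24 libraries. Of the 14074 genes listed, 853 were classed as lncRNA, and 336 of these reached the mean of 100. The selection also named 3 rows to be left out, which differed between groups in earlier results of these data (9330121J05Rik, 2900052N01Rik and Gm4876). Only 2900052N01Rik, with a mean of 871, met class and mean, so that 335 members remained. Members were thus chosen by their mean normalized count over all groups, and levels are given as a description. No member was missing in any library, and the lowest single value was 21 reads.

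A lncRNA is a transcript longer than the usual small RNAs that carries no long reading frame for a protein. Some act as RNA, for example Malat1 in nuclear speckles or Neat1 in paraspeckles. Others are the primary transcripts out of which microRNAs (miRNAs) or small nucleolar RNAs (snoRNAs) are cut, and many run antisense to, or away from, the promoter of a protein-coding gene. The brain expresses many of them, several from imprinted loci, of which only the copy of 1 parent is active.

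Of the members, 22 spanned at least 1 annotated miRNA hairpin on their own strand, and the mature miRNAs of the hosts on which the results below turn are printed here from RefSeq (GRCm38.p6), 5′ to 3′. Capitals mark the seed, bases 2 to 8, which pairs with target mRNAs. Gm3764, C130071C03Rik and Mir9-3hg lie on different chromosomes and hold the hairpins Mir9-1, Mir9-2 and Mir9-3, which give the same mature miRNAs.
mmu-miR-9-5p (from Gm3764): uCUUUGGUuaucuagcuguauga
mmu-miR-9-3p (from Gm3764): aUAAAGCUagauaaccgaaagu
mmu-miR-22-5p (from Mir22hg): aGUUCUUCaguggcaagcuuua
mmu-miR-22-3p (from Mir22hg): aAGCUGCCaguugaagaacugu
mmu-miR-101a-3p (from E130102H24Rik): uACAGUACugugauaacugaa
mmu-miR-29b-3p (from A330023F24Rik): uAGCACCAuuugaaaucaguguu
mmu-miR-29c-3p (from A330023F24Rik): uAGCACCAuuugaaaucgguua
The last pair comes from 1 host and shares the seed AGCACCA. miR-9 is abundant in neural tissue, where it acts on the switch from progenitors to neurons.

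Bc1, the member with the most counts per exonic kb, is a short RNA polymerase III transcript of neurons that is carried into dendrites and acts on translation. Its annotated transcript (chr7:144914470-144914637, plus strand) has 168 bases in GENCODE vM21 (mm10) and is printed as DNA letters, 5′ to 3′. It is shown because the libraries were made from poly(A) RNA. Capitals mark its 4 runs of at least 4 A, of which the longest has 23.
Bc1: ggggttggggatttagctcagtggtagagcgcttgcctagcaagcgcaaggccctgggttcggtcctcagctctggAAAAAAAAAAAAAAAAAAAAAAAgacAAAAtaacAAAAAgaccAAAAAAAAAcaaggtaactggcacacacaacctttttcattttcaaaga

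The 24 libraries came from the PFC of male C57BL/6 mice of 10 to 12 weeks, 1 library per mouse, in 6 groups of 4. Control mice had no defeat and were housed singly for 5 days. PS (passive coping) and AS (active coping) mice went through 30 days of chronic social defeat by CD1 aggressors and were told apart by clustering of their behaviour while in contact with the aggressor without attack. Each of these 3 phenotypes received saline or 2 mg/kg dexamethasone (DEX), a synthetic agonist of the glucocorticoid receptor, 24 h after the last defeat for the stressed animals, and tissue was taken 6 h later. The dissected block held several frontal areas, and in bulk tissue fewer cells of a type and less RNA per cell cannot be told apart.

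A library held 21121869 to 59439645 recovered reads on genes (median 24420130). Fkbp5, Tsc22d3 and Sgk1, textbook targets of the glucocorticoid receptor, were higher in every DEX library than in every saline library of the same phenotype, so the DEX labels matched the data. Markers of neurons, astrocytes, oligodendrocytes and microglia were present in all libraries. The summed level of 3 olfactory bulb markers ran from 94.9 to 3857 normalized counts, with high libraries in several groups. It reached 3857 in saline-treated control mouse 117 and 3191 in DEX-treated PS mouse 34. No fit without both mice was made, and the part of bulb tissue in the members' differences was not tested. Saline-treated PS mice 2 and 62 stood apart in Gm42418, and saline-treated AS mouse 44 and DEX-treated AS mouse 60 in Malat1. Counts that rest on them are given with and without them, an alternative chosen after the data were seen.

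The 335 members took 1.81% of all normalized counts, and 5 of them took 61.5% of the members' counts. In order of mean normalized count these were Meg3, the maternally expressed RNA of the imprinted Dlk1-Dio3 locus, with 110739.9, Bc1 with 69450.2, Gm42418 with 57087, 2900097C17Rik (Norad, which binds Pumilio proteins) with 36847 and Malat1 with 34372. The next 5 were Rian with 14996, Miat with 12801, 1700020I14Rik (Cyrano, which directs the decay of miR-7) with 12009, Peg13, an imprinted RNA of brain, with 8257, and B230334C09Rik with 5026. Together the first 10 held 72.1% of the members' counts, and the list fell off steeply. In all, 43 members averaged at least 1000 and 160 averaged under 200. The median member had a mean of 206, against 694 over all genes.

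Levels of different genes can be compared only per length. Per exonic kb of the annotation, Bc1 stood at 413394 normalized counts, far above Gm42418 at 31178, Meg3 at 6122, 2900097C17Rik at 7497 and Malat1 at 4922. The median member stood at 88.5 per exonic kb, over a median of 2880 exonic bases. Symbols of the Gm or Rik kind made up 260 of the 335. That count rests on the name alone and includes 2900097C17Rik and 1700020I14Rik, whose roles are given above.

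The spread between mice of a group differed widely among members. The median within-group SD of log2(normalized count + 1) was 0.18, against 0.13 over 11520 protein-coding genes with a mean of at least 100, whose median level was 961. The part of level and depth in this gap was not tested. Among the 10 most abundant members the SD was 0.12 for 2900097C17Rik, 0.14 for Rian and 0.22 for Meg3, but 0.43 for Malat1, 0.48 for Bc1 and 0.99 for Gm42418. The widest spread of all was in Gm21887 (1.18) and Gm47283 (1.13), named after their values were seen. Gm21887 reached 1999 in 1 saline-treated PS library, where the other 3 lay between 90.8 and 289.

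**Figure D1:**
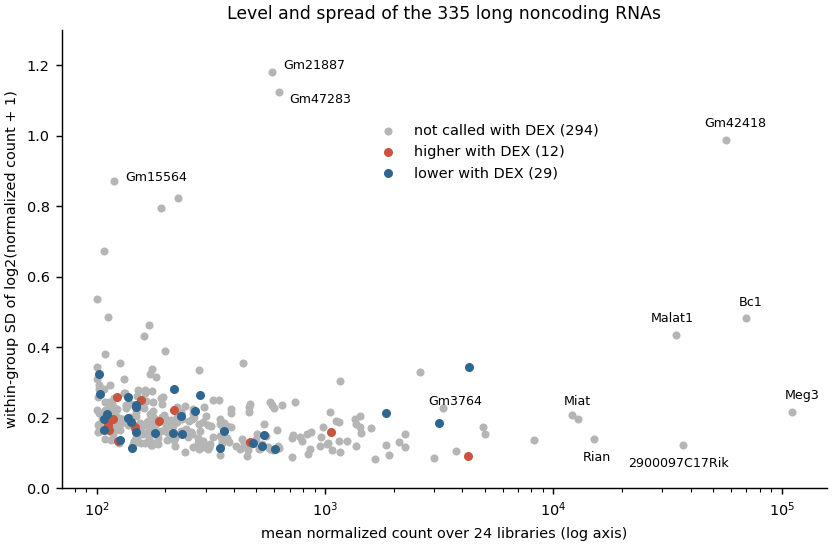
Each point is 1 of the 335 members, with its mean normalized count over the 24 libraries on a log axis against the SD of its log2 values within groups. The most abundant lie far to the right, Gm21887, Gm47283 and Gm42418 lie highest and the 41 members called with DEX are coloured, 12 higher in red and 29 lower in blue.

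Differences between groups in the abundant members did not pass the test used below. Meg3 was at 107873 ± 17848 normalized counts (SD, n = 4) in saline-treated controls, 114392 ± 15949 in PS and 107517 ± 8573 in AS. Over the 3 phenotypes its DEX minus saline log2 difference was 0.02 (SE 0.09, limma adjusted p = 0.958). None of the 10 most abundant members passed the threshold in any of the 10 comparisons.

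The same held for most of the named groups. All 4 members of the Dlk1-Dio3 locus (Meg3, the snoRNA host Rian, the miRNA host Mirg and Gm27000) did not pass it in any comparison, with a median DEX difference of 0.02. Neither the 3 nuclear RNAs Malat1, Neat1 and Miat nor the 3 members of the X inactivation centre (Ftx, Jpx and 5530601H04Rik) passed it with DEX. Neat1, the scaffold of paraspeckles, had a DEX difference of -0.18 (limma adjusted p = 0.396), and Miat one of -0.05 (limma adjusted p = 0.816). The 6 general lncRNAs, Tug1, 2900097C17Rik and 1700020I14Rik among them, had a median of 0.02, beside a median of -0.00239 over all genes. Of the 8 neural members 1 passed, Sox2ot, lower with DEX. Of the 8 imprinted members 0 passed. Among them Snhg14, which hosts a long snoRNA cluster and runs antisense to Ube3a, had a difference of -0.09 (limma adjusted p = 0.755).

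Hosts of snoRNAs carry these small RNAs in their introns and are themselves spliced RNAs linked to growth. By the annotation 15 members spanned snoRNAs, and 0 of these were called in the 4 DEX comparisons or in PS or AS against control by limma. Gas5, whose RNA can bind the glucocorticoid receptor, had 1254, 1305, 1354 and 1627 normalized counts in saline-treated controls and 1383, 1396, 1477 and 1751 in DEX-treated controls. The groups overlapped, and over the 3 phenotypes the difference was 0.04 (SE 0.06, limma adjusted p = 0.802). With saline, 13 of the 15 hosts had a higher mean in PS than in control, with a median log2 difference of 0.17, against 0.05 over all members. The difference was positive in 62.1% of members and 50.6% of all genes. In AS against control 12 of the 15 were higher, with a median of 0.12, against 0.02 over all members. Both comparisons share the saline-treated controls. Zfas1 had 278, 284, 321 and 358 in saline-treated controls and 377, 385, 408 and 432 in saline-treated PS mice. Those 2 groups did not overlap, and the difference of 0.37 did not pass the adjusted threshold (limma adjusted p = 0.178).

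Genes differing between groups were called with limma on log2(normalized count + 1) over all 14074 genes, at a Benjamini-Hochberg adjusted p under 0.1. All fold changes are on this log2 scale, as DEX minus saline or as the first named group minus the second.

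Over the 3 phenotypes DEX shifted 41 members, 12.2% of the 335 against 15.5% of all genes. Of these 12 rose (3.58%, against 7.46% of all genes) and 29 fell (8.66%, against 8.01%). The median size of the difference among the called members was 0.29 for rises and 0.31 for falls on the log2 scale. In each of the 41, the difference had the same sign in control, PS and AS mice, as it did in 958 of the 1050 genes that rose and 980 of the 1128 that fell over the whole table. With quantile normalization 17 rose and 25 fell, and 2242 of all genes were called, against 2178 in the main fit. Without PS mice 2 and 62 the count was 31, or 9.25% of the members against 12.2% of all genes. For the 6 rises Gm37885, Gm17322, Gm15624, Gm15721, 5033430I15Rik and 1700086O06Rik and the 6 falls AW047730, Gm12371, Gm10561, 6530402F18Rik, Gm43672 and AI115009, the call over the 3 phenotypes held in each of 8 other settings and without each of the 24 libraries.

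**Figure D2:**
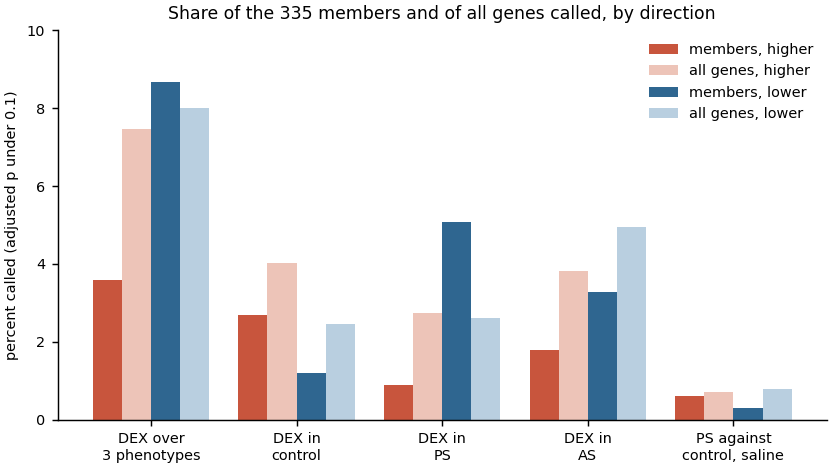
Bars give the percent of the 335 members (dark) and of all genes in the table (pale) called at an adjusted p under 0.1, higher in red and lower in blue, for the 4 DEX comparisons and for PS against control with saline. The share of members that rose was 3.58%, beside 7.46% of all genes, over the 3 phenotypes, and the share that fell in PS was 5.07%, beside 2.62%.

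AW047730 (ENSMUSG00000097428.1, chr3:88200623-88203481, plus strand in mm10) had the smallest p of the falls. With saline it had 561, 582, 628 and 659 normalized counts in controls, 528, 579.7, 628 and 691 in PS and 609, 638, 663 and 725 in AS. After DEX the values were 384, 441, 462 and 504 in controls, 391, 424, 441 and 524 in PS and 417, 435, 525 and 527 in AS. Every DEX library lay below every saline library of its phenotype. AW047730 was the only member with groups apart in the same direction in all 3 phenotypes, where 1.66% of all genes were. Its log2 difference was -0.45 (SE 0.06, limma adjusted p = 6.68e-06) over the 3 phenotypes, and -0.44, -0.45 and -0.47 in control, PS and AS, each past the threshold.

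Downstream of AW047730 on the same strand, after a gap of 3331 bases, lies Gm3764 (chr3:88206813-88229959, plus strand), the host of Mir9-1 and Mir3093. Gm3764 fell with DEX by 0.28 on the log2 scale over the 3 phenotypes (SE 0.07, limma adjusted p = 0.00628). In AS mice it had 3176, 3435, 3828 and 4112 with saline and 2310.1, 2471, 2777 and 3006 with DEX, which do not overlap, a difference of -0.46 (SE 0.12, limma adjusted p = 0.0205). In controls the difference was -0.19 (limma adjusted p = 0.511) and in PS -0.20 (limma adjusted p = 0.523), with overlapping values. Among the 7 pairs of members within 10000 bases on 1 strand, this was the only pair with both called. Mef2d, a neuronal transcription factor and the nearest coding gene in the table, upstream of both on the same strand, had a DEX difference of -0.10 (limma adjusted p = 0.109).

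The other hosts of miR-9, which give the same mature sequence, did not pass the threshold. C130071C03Rik had 1210.4, 1342, 1439.9 and 1496 in saline-treated AS mice and 1246, 1378, 1425 and 1534 after DEX, and a difference over the 3 phenotypes of -0.04 (SE 0.05, limma adjusted p = 0.699). Mir9-3hg had 1007, 1101, 1195 and 1251 with saline and 1022, 1093, 1173 and 1244 with DEX in AS mice, and a difference of -0.02 (SE 0.05, limma adjusted p = 0.901). By mean normalized count Gm3764 was the highest of the 3 hosts, at 3145, and per exonic kb the 3 stood at 541, 241 and 264. Mature miRNAs were not measured in these libraries, and differences between the hosts' responses were not tested.

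Gm12371 (chr4:36952966-36988032, plus strand) had the largest difference among the called falls over the 3 phenotypes, -0.50 (SE 0.08, limma adjusted p = 8.08e-05). In PS mice it had 226, 266, 282 and 328 with saline and 152, 166, 192 and 196 with DEX, and those groups did not overlap. In controls and AS the groups overlapped, with differences of -0.45 and -0.43, both called. The call in controls was lost in a fit of only the groups compared and in 5 of 24 fits with 1 library left out. Lingo2, a transmembrane protein gene that lies 1219 bases away on the opposite strand, had a DEX difference of 0.00 (limma adjusted p = 0.992).

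Gm43672 (chr3:22074412-22076142, minus strand) starts divergently near Tbl1xr1, which encodes a part of a corepressor complex. It had 404, 418, 442 and 445 in saline-treated PS mice against 274, 284, 295 and 308 after DEX, and 396, 404, 427 and 452 against 269.5, 314, 317 and 322 in AS. The groups were apart in both stressed phenotypes, with differences of -0.56 (limma adjusted p = 0.00360) and -0.46 (limma adjusted p = 0.0142). In controls the ranges overlapped and the difference was -0.18 (limma adjusted p = 0.512). Tbl1xr1 itself had -0.08 (limma adjusted p = 0.346) over the 3 phenotypes.

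Gm10561, antisense to the raftlin gene Rftn2, fell by 0.50 over the 3 phenotypes (SE 0.11, limma adjusted p = 0.00159). It had 136, 136, 139 and 148 with saline and 73.7, 83.9, 98.2 and 104 with DEX in AS mice, with no overlap. AI115009, antisense to the adenylate kinase gene Ak5, went from 167, 172, 177 and 192 to 99.7, 121, 121 and 122 in AS mice, a difference of -0.61 (SE 0.16, limma adjusted p = 0.0229). Rftn2 and Ak5 had DEX differences over the 3 phenotypes of -0.06 (limma adjusted p = 0.489) and -0.05 (limma adjusted p = 0.640). Within AS mice Rftn2 passed the threshold as well (-0.23, limma adjusted p = 0.0905), beside -0.65 for Gm10561. Differences between partners were not tested. In PS mice Gm10561 went from 102, 114, 116 and 149 to 61.2, 68.0, 76.7 and 88.1, and that call was lost without PS mice 2 and 62.

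6530402F18Rik lies inside Ntng2, the gene of the axonal adhesion protein netrin-G2, on the same strand. It fell by 0.41 (SE 0.08, limma adjusted p = 0.00130), and Ntng2 had a difference of -0.37 (limma adjusted p = 9.89e-05). Sox2ot, which spans the gene of the transcription factor Sox2 on the same strand, had 313, 318, 323 and 352 with saline and 215, 251, 271 and 275 with DEX in PS mice. Over the 3 phenotypes it fell by 0.34 (limma adjusted p = 0.0233), but it was not called within PS mice or within either other phenotype. Sox2 had a difference of -0.37 (limma adjusted p = 9.63e-05). In such pairs a lncRNA and a coding gene share a strand, and how reads that fit both were counted is not given in the sources used here.

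Dubr, whose nearest coding gene in the table (Bbx) lies 286904 bases away, had 131, 137, 144 and 152 in saline-treated controls and 103, 104, 114 and 119 after DEX. The groups were apart there and in PS, with differences of -0.36 (limma adjusted p = 0.0665) and -0.35 (limma adjusted p = 0.0861), and in AS the difference was -0.27 (limma adjusted p = 0.176). In controls Dubr was not called in a fit of only the groups compared or with DESeq2. The other falls ran from -0.38 in Gm26917 to -0.14 in A330009N23Rik. Among them, and named after their values were seen, Emx2os fell by 0.29 and Gm5577, antisense to the linker histone gene H1fx, by 0.34. Emx2os is antisense to Emx2, a transcription factor gene of cortical patterning that had 0.10, limma adjusted p = 0.546.

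Among the rises, Gm37885 (chr1:182484179-182492473, plus strand) had the largest difference. In controls it had 157, 196, 197 and 201 normalized counts with saline and 288, 304, 329 and 366 with DEX. In PS the values were 141, 155, 155 and 159.9 with saline and 198, 240.1, 249 and 261 with DEX. In AS they were 128, 160.0, 163 and 181 with saline and 168, 249.9, 260.0 and 333 with DEX. Control and PS groups were apart and AS groups overlapped by 1 DEX library. The difference was 0.68 (SE 0.09, limma adjusted p = 3.44e-06) over the 3 phenotypes and passed the threshold in each of them. The call in PS was lost without PS mice 2 and 62, and that in AS in a fit of only the groups compared. Gm37885 is antisense to Capn2, the gene of the calcium-dependent protease calpain 2, which itself had a difference of 0.26 (limma adjusted p = 2.10e-05). The 2 genes overlap on opposite strands, and the strand setting of the counting is not given in the sources used here, so reads of the one on the other cannot be told apart.

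Gm17322 (chr9:57998041-58007451, plus strand) also rose in all 3 phenotypes. It went from 123, 132, 133 and 136 to 166, 178, 198 and 204 in controls and from 105, 105, 105 and 145 to 151, 175, 178 and 178 in AS, with no overlap in either. In PS it went from 104, 118, 128 and 133 to 125, 155, 183 and 187, and the lowest DEX library lay within the saline range. The difference over the 3 phenotypes was 0.49 (SE 0.07, limma adjusted p = 2.99e-05). In PS the call was lost without mice 2 and 62. It overlaps Cyp11a1, the gene of the enzyme that starts steroid synthesis, on the same strand, and the nearest coding gene in the table is Sema7a, with 0.06 (limma adjusted p = 0.596).

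Gm15624, antisense to the dynactin gene Dctn1, had 89.2, 101, 118 and 123 in saline-treated controls and 143, 167, 169 and 199.8 after DEX, which do not overlap, a difference of 0.65 (SE 0.18, limma adjusted p = 0.0310). In PS the difference was 0.22 (limma adjusted p = 0.694). 1700086O06Rik, antisense to Dele1, went from 75.8, 83.6, 89.1 and 90.4 to 102, 119, 120.4 and 139 in controls, a difference of 0.49 (SE 0.13, limma adjusted p = 0.0222), beside 0.09 (limma adjusted p = 0.782) in AS. Dctn1 and Dele1 had -0.12 (limma adjusted p = 0.310) and 0.01 (limma adjusted p = 0.963) in controls.

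Gm15721 and 5033430I15Rik start divergently from Mtus2 and from Atxn1, the ataxin-1 gene. They rose by 0.39 (limma adjusted p = 0.00712) and 0.34 (limma adjusted p = 0.00314) over the 3 phenotypes, beside 0.21 (limma adjusted p = 8.55e-04) for Mtus2 and 0.16 (limma adjusted p = 0.0525) for Atxn1. In controls Gm15721 was called in 4 of 9 settings only. Gm10419, named after its values were seen, had the most counts among the rises, at 4247 on average, and rose by 0.20 (limma adjusted p = 4.91e-04).

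**Figure D3:**
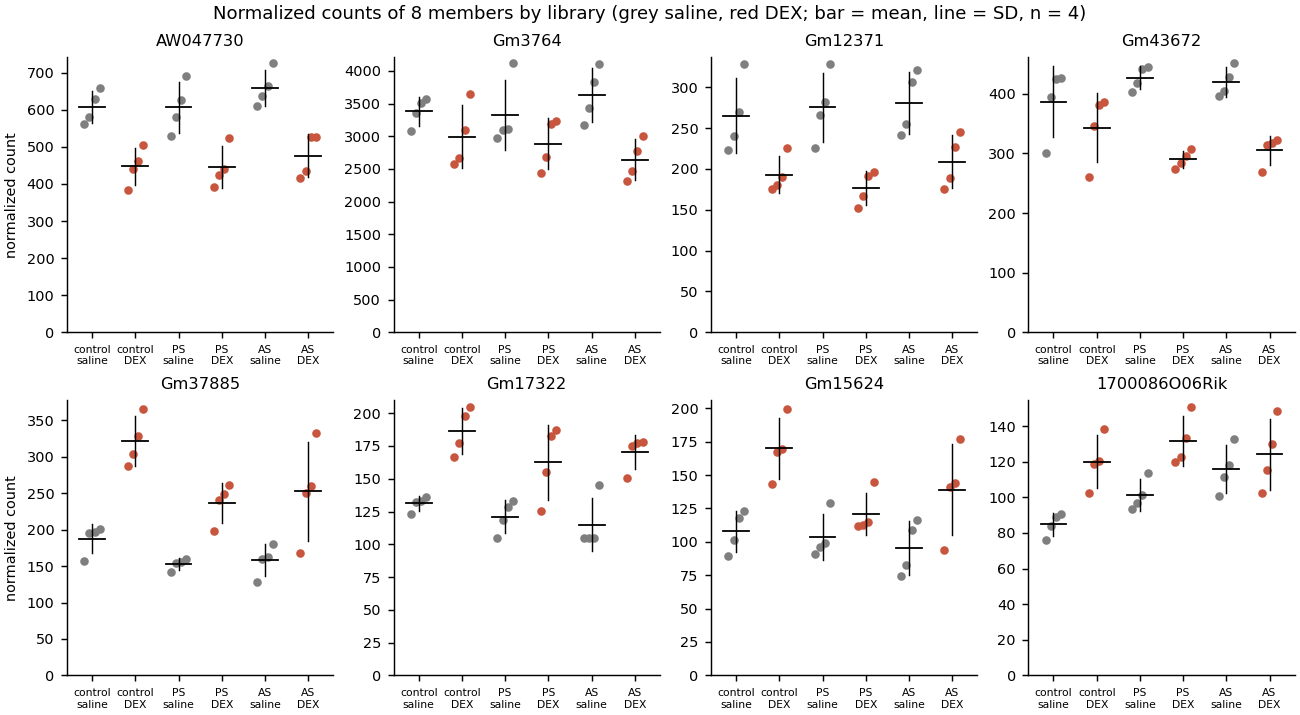
Normalized counts of 8 members in each library, saline in grey and DEX in red, for the 6 groups of 4, with the mean as a bar and the SD as a line. AW047730 lies lower with DEX in all 3 phenotypes, Gm3764 is apart only in AS, and Gm37885 lies higher in every DEX group, with 1 DEX-treated AS library inside the saline range.

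Calls were also counted within each phenotype. In controls 13 members were called (3.88%, against 6.49% of all genes), of which 9 rose (2.69%, against 4.03%) and 4 fell (1.19%, against 2.46%). In PS mice 20 were called (5.97%, against 5.36%), of which 3 rose (0.896%, against 2.74%) and 17 fell (5.07%, against 2.62%). In AS mice 17 were called (5.07%, against 8.77%), of which 6 rose (1.79%, against 3.82%) and 11 fell (3.28%, against 4.95%). No member had a DEX response that differed between phenotypes at the threshold, as given below, so a call in 1 phenotype alone does not set that phenotype apart. With quantile normalization 8 rose and 6 fell in controls, and 8 rose and 8 fell in AS. It called 980 and 1182 of all genes there, against 913 and 1234 in the main fit.

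Leaving out a library moved these counts. Calls over all genes are not given for fits with 1 library left out, so these shifts are not set against the whole table. In PS 6 members were called without saline-treated PS mouse 2, 10 without mouse 28, 12 without mouse 62, and 9, 12 and 13 without DEX-treated PS mice 6, 34 and 52. Without both mouse 2 and mouse 62 there were 4, all lower, or 1.19% of the members against 2.38% of all genes. The AS count was 9 without saline-treated AS mouse 8 and 29 without mouse 44, and the control count was 8 without control mouse 107 or 101.

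**Figure D4:**
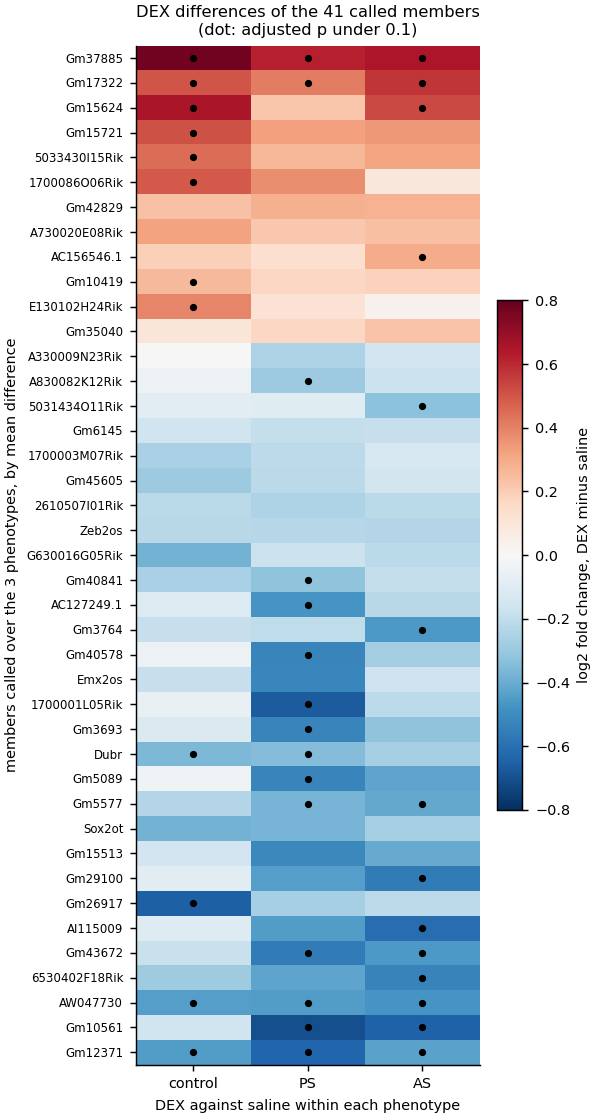
Rows are the 41 members called with DEX over the 3 phenotypes, ordered by the mean difference, and columns the difference (log2, DEX minus saline) within control, PS and AS mice. Red is higher, blue is lower and a dot marks an adjusted p under 0.1 in that phenotype. Dots stand in all 3 columns for Gm37885, Gm17322, AW047730 and Gm12371.

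Several members are named for their call in PS or in AS mice. In PS, 1700001L05Rik had 239, 256, 275 and 288 with saline and 142, 165, 175 and 184 with DEX, a difference of -0.67 (SE 0.18, limma adjusted p = 0.0404) with no overlap, beside -0.06 in controls. Gm40578 went from 165, 165, 168 and 196 to 109, 114, 116 and 142 in PS, a difference of -0.53 (SE 0.14, limma adjusted p = 0.0257). It overlaps Gm266 on the same strand, which had -0.97 (limma adjusted p = 0.0148) in PS. Neither 1700001L05Rik nor Gm40578 passed in PS without mice 2 and 62. Gm5089, antisense to Clybl, fell in PS by 0.53 (limma adjusted p = 0.0475), and 9130221H12Rik, antisense to the kinase gene Gsk3a, rose there by 0.33 (limma adjusted p = 0.0714), both also lost without mice 2 and 62. Clybl and Gsk3a had -0.05 (limma adjusted p = 0.911) and 0.10 (limma adjusted p = 0.651), and Arfgap3, next to 1700001L05Rik, -0.05 (limma adjusted p = 0.893).

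In AS mice, 1500004A13Rik had 1437, 1462, 1637 and 1654 with saline and 1735, 1749, 1756 and 1814 with DEX, a rise of 0.19 (SE 0.06, limma adjusted p = 0.0771) with groups apart. Gm13446, antisense to Dab2ip, rose by 0.40 (limma adjusted p = 0.0686), and AC156546.1, 1527 bases from Jakmip2 on the same strand, by 0.30 (limma adjusted p = 0.0610). Gm29100, antisense to Twist2, went from 143, 157, 210.2 and 223 to 98.2, 124, 132 and 136, a difference of -0.56 (SE 0.16, limma adjusted p = 0.0350). Of these 4, each lost its call in AS in a fit of only the groups compared, and 1500004A13Rik and Gm13446 also without mice 44 and 60. Their coding neighbours had 0.00 (limma adjusted p = 0.995) for Gon4l, 0.05 (limma adjusted p = 0.852) for Dab2ip, 0.25 (limma adjusted p = 0.0415) for Jakmip2 and -0.11 (limma adjusted p = 0.647) for Hdac4.

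Hosts of miRNAs were called with DEX in 4 of 22 cases over the 3 phenotypes, or 18.2%, near the 15.5% of all genes. Besides Gm3764 and Sox2ot these were Gm6145, which holds Mir6390 and fell by 0.18 (limma adjusted p = 0.0179), and E130102H24Rik, which holds Mir101a. E130102H24Rik had 86.4, 101, 110.4 and 114 with saline and 123, 129, 135 and 153 with DEX in controls, groups that were apart, with a difference of 0.39 (SE 0.11, limma adjusted p = 0.0393). In PS and AS its differences were 0.12 and 0.04. A330023F24Rik, the host of the miR-29 pair printed above, had a difference of 0.08 (limma adjusted p = 0.640). Mir124a-1hg and Mir124-2hg, hosts of the neuronal miR-124, had 0.09 (limma adjusted p = 0.490) and 0.05 (limma adjusted p = 0.728). Mirg, which spans 14 hairpins of the Dlk1-Dio3 locus, had -0.04 (limma adjusted p = 0.868). Of the 9 members on a list of hosts drawn up by name rather than by position, 0 were called with DEX over the 3 phenotypes.

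By position, 128 members overlapped a coding gene on the opposite strand only, and 34 overlapped one on the same strand. Of those without an overlap, 47 started within 1000 bases of a coding start and pointed away from it, and 126 did not. With DEX over the 3 phenotypes 12.5%, 17.6%, 8.51% and 11.9% of these classes were called, beside 12.2% of all members and 15.5% of all genes. With overlapping members included, 114 started within 1000 bases of a coding start on the opposite strand, and 10.5% of them were called. Of the 41 called members, 20 overlapped their nearest coding gene in the table, and 12 had a nearest coding gene that was called too, 10 in the same direction and 2 in the opposite one, or 29.3%. Among the 294 members that were not called, the nearest coding gene was called for 43, or 14.6%. The 10 same-direction pairs were those of Gm37885, 6530402F18Rik, Sox2ot, Gm15721, 5033430I15Rik, 1700001L05Rik and Gm40578 named above, with A830082K12Rik and Nr2f1, Zeb2os and Zeb2, and Gm15513 and Zfyve28. Nr2f1 and Zeb2 encode transcription factors of cortical development, and fell by 0.21 and 0.18, beside falls of 0.17 and 0.23 for A830082K12Rik and Zeb2os. In the 2 opposite pairs E130102H24Rik rose and the adenylate kinase gene Ak4 fell (-0.34, limma adjusted p = 6.32e-06), and Gm26917 fell and Cenpq, 1076710 bases away, rose (0.23, limma adjusted p = 0.0183). Pairs were not tested against other pairs.

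RefSeq promoter windows of 300 bases (GRCm38.p6) were given for 191 members, in 234 windows. The half-site of the glucocorticoid receptor, AGAACA or TGTTCT on either strand, stood in 16.2% of them and in 19% of all 32851 windows. The receptor's palindromic response element stood in 0.427% of the member windows and in 0.475% of all. Windows existed for 3 of the members that rose with DEX and 17 of those that fell. A half-site stood in windows of A730020E08Rik, which rose, and of AI115009, Gm5577, Gm40578 and Dubr, which fell, and the palindrome in none of the windows of these 20. A match of letters is a description and not a binding site.

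With saline, PS mice differed from controls in 3 members (0.896%, against 1.51% of all genes), of which 2 were higher (0.597%, against 0.718%) and 1 lower (0.299%, against 0.796%). Mir22hg (chr11:75461539-75466676, plus strand), the host of miR-22, had 643, 648, 681 and 750.1 in controls and 873, 883, 887 and 904 in PS. The PS libraries lay close together and above all controls, a difference of 0.38 (SE 0.09, limma adjusted p = 0.0515). In AS mice with saline it had 741, 765, 791 and 1019, a difference from control of 0.28 (limma adjusted p = 0.294). DEX did not move it past the threshold in any phenotype, and after DEX it had 626, 675, 697 and 738 in controls and 776, 808, 888 and 895 in PS, values that again did not overlap. It overlaps Tlcd2 on the same strand, and Wdr81, the nearest coding gene in the table, had -0.22 (limma adjusted p = 0.327).

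C730002L08Rik (chr19:20410544-20552330, minus strand), antisense to Aldh1a1, the gene of an enzyme of retinoic acid synthesis, had 347, 422, 459.9 and 499 in saline-treated controls and 529, 571, 624 and 670.2 in saline-treated PS mice, a difference of 0.48 (SE 0.12, limma adjusted p = 0.0641). After DEX, controls had 505, 581, 629.9 and 672, a difference from saline of 0.47 (SE 0.12, limma adjusted p = 0.0238). Saline-treated controls lay below all 4 libraries in both comparisons, which share those 4 saline libraries. For the same reason the DEX differences in PS mice and those of PS against control are not independent. In PS mice the DEX difference was -0.15 (limma adjusted p = 0.699), and the response differed from that of controls by -0.62, with a limma adjusted p of 0.294. Aldh1a1 had 0.01 (limma adjusted p = 0.978) in PS against control.

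Gm45606 (chr11:75530277-75533071, minus strand), antisense to the amino acid transporter gene Slc43a2, had 461, 479, 515 and 625 in controls and 392, 400.4, 414 and 417 in PS, lower with no overlap. The difference was -0.35 (SE 0.08, limma adjusted p = 0.0497), and Slc43a2 had -0.20 (limma adjusted p = 0.288).  Without saline-treated PS mice 2 and 62, or without any 1 of PS mice 2, 28 and 62 or control mouse 106, 0 of the 335 members were called in PS against control. The count was 1 without control mouse 117, 5 without saline-treated AS mouse 44 and 8 without AS mice 44 and 60. Those 8 were 2.39% of the members, against 4.07% of all genes. Without PS mice 2 and 62, 0.163% of all genes were called, against 1.51% with all libraries. Without both PS mice 67.2% of the members and 50.1% of all genes had a positive difference. With them the shares were 62.1% and 50.6%, and in AS against control 58.5% and 50.9%. Members are not replicates, both comparisons share the saline-treated controls, and these shares were not tested.

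Of the left-out rows only 2900052N01Rik met class and mean and was put back. With it 4 rows were called in PS against control, 14 with DEX in controls and 21 with DEX in PS. Over the 3 phenotypes and with DEX in AS the number was the same as without it. 9330121J05Rik and Gm4876, with means of 78.5 and 95.5, stayed out.

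AS mice with saline differed from controls in 0 members by limma (0.156% of all genes were called). At an unadjusted p under 0.05 by limma there were 30, or 8.96% of the members. The share of all genes at that unadjusted p was not counted, here or below. By edgeR 0 members were called and by DESeq2 1, beside 26 and 99 of all genes. The smallest p was that of Gm26917 (chr17:39843013-39846341, plus strand), with 5089, 6036, 6647 and 8023 in controls and 2726, 2783, 3688 and 4190.0 in AS. The groups were apart, and the difference was -0.95 (SE 0.22, limma adjusted p = 0.105), which passed the threshold in a fit of only the groups compared and with DESeq2. AS and PS mice differed in 0 members by limma (0% of all genes), 0 by edgeR and 0 by DESeq2. By limma 12 members, or 3.58%, had an unadjusted p under 0.05. Of all genes edgeR called 0 and DESeq2 11. Rab10os had the smallest p there, with 949, 998, 1014 and 1072 in PS and 579, 833, 835 and 862 in AS, a difference of -0.39 (SE 0.11, limma adjusted p = 0.769).

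The DEX response was compared between phenotypes by its interaction with phenotype. Between PS and control 0 members were called (0% of all genes), between AS and control 0 (0.348%), and between AS and PS 0 (0%), by limma. At an unadjusted p under 0.05 by limma there were 25, 23 and 5, or 7.46%, 6.87% and 1.49% of the members. The share of all genes was not counted there, so these counts have no background. By edgeR all 3 counts were 0, and by DESeq2 they were 0, 1 and 0. Of all 14074 genes edgeR called 0, 77 and 0 and DESeq2 23, 439 and 0. Between AS and control 4 members were called when DEX-treated control mouse 112 was left out, and 1 when AS mouse 44 (saline) was left out. The member called by DESeq2 was B230209E15Rik, from the list of imprinted lncRNAs, which also had the smallest p by limma between AS and control. It had 1319, 1369, 1517 and 1661 with saline and 784, 1202, 1317 and 1325 with DEX in controls. In AS it had 1118, 1178, 1189 and 1209 with saline and 1344, 1347, 1384 and 1402 with DEX. Its values were lower after DEX on average in controls and higher in every library in AS, a difference between responses of 0.59 (SE 0.18, limma adjusted p = 0.156). Between AS and PS the smallest p was that of Gm9828, antisense to Btf3, at 0.52 (SE 0.15, limma adjusted p = 0.9997).

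Records with sequence like that of ribosomal RNA made up 3 members. Gm42418 and Gm26917 are neighbouring records on chromosome 17, 616 bases apart, and Gm15564 lies on another chromosome. Gm42418 had 29438, 56422, 230884 and 375806 normalized counts in saline-treated PS mice, of which the upper pair are mice 62 and 2. In the other 5 groups it ran from 13988 to 70589.8. Gm15564 was high in the same pair, at 450.2 and 638, where the highest value elsewhere was 133. Gm26917 did not follow, with 3744 and 6494 in those mice. Over the 3 phenotypes the DEX differences were -0.76 (limma adjusted p = 0.206), -0.61 (limma adjusted p = 0.266) and -0.38 (limma adjusted p = 0.0505), so that only Gm26917 was called by limma. Gm42418 was called by edgeR and DESeq2. Gm26917 fell in controls, to 3188, 4066, 4362 and 4738, a difference of -0.65 (SE 0.22, limma adjusted p = 0.0951) that passed in 11 of 24 fits with 1 library left out. Including Gm42418, members took 1.41% to 2.86% of the counts of a library, and without it 1.34% to 2.00%.

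Malat1 had 23956, 24609.6, 25611 and 63979 in saline-treated AS mice and 27396, 31687, 35411 and 84901 in DEX-treated AS mice, so that 1 library of each group stood far above the others. Its DEX difference in AS was 0.36 (SE 0.27, limma adjusted p = 0.559). Bc1 had 32542, 54476, 55817 and 67028 in saline-treated controls and 62166, 63970.1, 76899 and 109154 in saline-treated AS mice. The difference of 0.58 did not pass (limma adjusted p = 0.480).

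**Figure D5:**
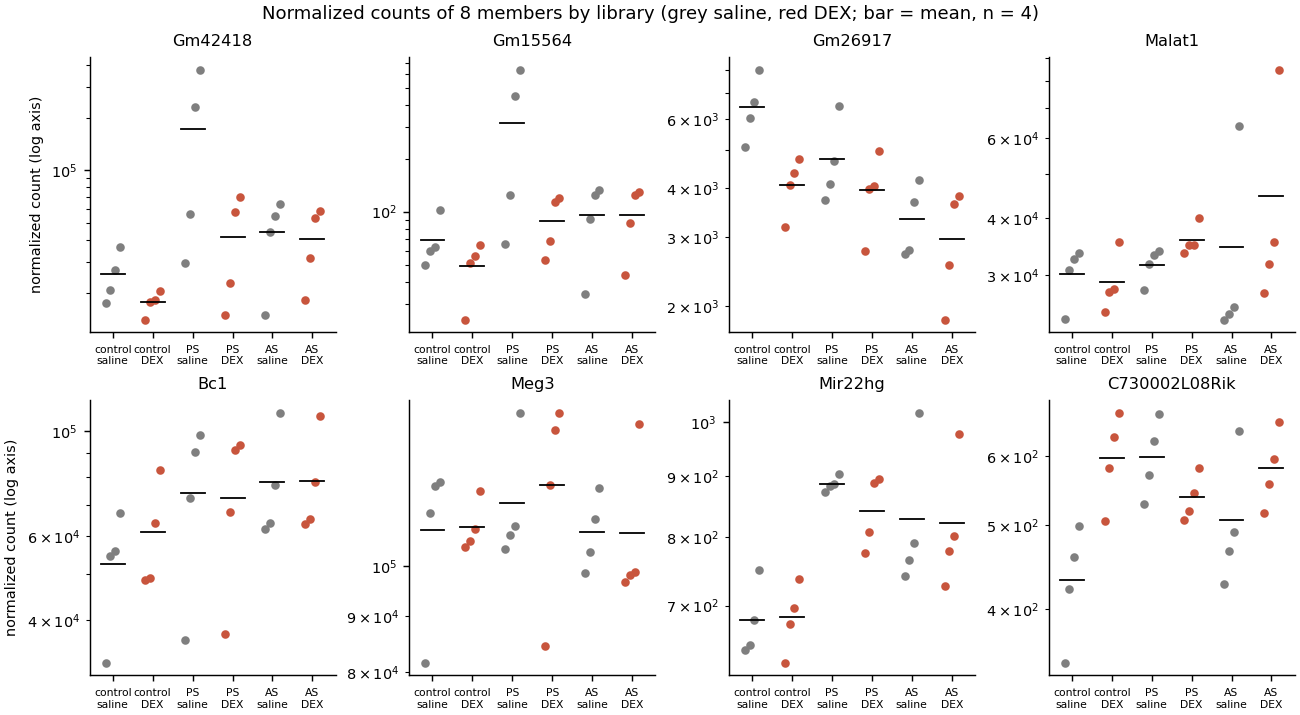
Normalized counts of 8 members in each library on a log axis, saline in grey and DEX in red, with the group mean (n = 4) as a bar. In saline-treated PS mice Gm42418 and Gm15564 each have a pair of libraries far above the rest, in AS mice Malat1 has 1 high library with saline and 1 with DEX, C730002L08Rik has its lowest mean in saline-treated controls, and Mir22hg is low in controls of both treatments.

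Markers of other cells moved with DEX beside these members. Of 5 microglial markers 2 fell over the 3 phenotypes, P2ry12 and Cx3cr1, and 0 rose, and none was at 0 in any library. Their summed level was 6671 to 7203 in saline-treated and 5591 to 6062 in DEX-treated PS mice, and 6045 to 7141 against 5672 to 7465 in controls. In AS mice the sums were 6852 to 7789 with saline and 5386 to 6287 with DEX. Of 5 astrocyte markers Aldh1l1 rose and Aqp4 fell, and in AS mice Gfap fell too. Of 4 striatal markers measured, 3 rose. Of 5 oligodendrocyte markers 1 rose (2 in AS mice), while Mag fell in controls. The median difference of those 5 was -0.30 in controls, 0.16 in PS and 0.50 in AS mice. Of 5 endothelial markers 1 fell (2 in AS mice). Of 6 pyramidal neuron markers 2 fell, while Tbr1 rose in AS mice. The part of these cell types in the members' differences was not tested.

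At the edge of the selection, 1500015A07Rik and Gm28928 were the lowest members, with means of 100.4 and 100.4, and BC051226 and 2210406O10Rik lay just below it, with 98.6 and 98.5. Their DEX differences over the 3 phenotypes were 0.07 and 0.11, and neither was called.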

How the data were processed

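RNA was measured in 24 libraries of mouse PFC, 1 per mouse. According to the study's methods, strand-specific libraries were made from poly(A) RNA and sequenced as paired ends, reads were trimmed with fastp 0.20.1, aligned to mm10 with HISAT2 2.2.1 and counted with featureCounts over GENCODE vM22. The signal values deposited by the authors are gene counts divided by DESeq2 size factors. The log2 fold change and p-value columns the authors deposited hold their own comparisons and were not used. The strand setting of the counting is not given in the sources used here.

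Groups came from the labels. Each value was a whole multiple of 1 read within 0.01 read for 100.0% of values, which gave reads per library. Replicate libraries differed beyond counting noise in all 36 pairs within groups, by a chi-square, per gene tested, of 5.57 to 79.5. Comparisons used limma 3.58.1 in R 4.3.3 on log2(normalized count + 1), with 1 mean per group fitted over all 24 libraries, a variance trend and Benjamini-Hochberg adjustment over 14074 genes, at an adjusted p under 0.1. The 10 comparisons were DEX against saline in each of the 3 phenotypes and over them, the 3 contrasts of phenotypes with saline and the 3 interactions. Alternatives were adding 8 in place of 1, a table cut to means of 100 or more, and quantile normalization. Others were only the groups compared, library size as a covariate, and edgeR 4.0.16 and DESeq2 1.42.0 on recovered reads. The left-out row 2900052N01Rik was also put back, and each library was left out in turn. The fits were tested on simulated data. Over all genes limma, edgeR and DESeq2 called 2178, 2176 and 2338 with DEX over the 3 phenotypes. In PS against control they called 213, 212 and 431, and in AS against control 22, 26 and 99. For the difference in DEX response between AS and control they called 49, 77 and 439.

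Members named are the 10 most abundant, up to 6 called rises and 6 called falls per comparison with groups apart first, up to 3 per list of lncRNAs, those linked to ribosomal RNA, the smallest p where none was called, and those beside the threshold. The members and lists were chosen with earlier results of these data known. Lengths and positions came from a GENCODE vM21 annotation of the same build.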

Additional observations from a re-analysis of the deposited data

Results flagged for a closer look

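In 25 of 330 groups of 4 mice of the members named, 1 mouse lay so far from the other 3 that its gap exceeded Dixon's critical value. Chance alone flags about 1 in 20 groups, or 16.5 here. The mouse was the lowest of its group in 10 cases and the highest in 15. DEX-treated PS mouse 34 had the highest normalized count of its group in 5033430I15Rik (162, others 103 to 112), and the lowest in Neat1 (622, others 1311 to 1453). Saline-treated control mouse 106 had the lowest normalized count of its group in A330023F24Rik (1058, others 1355 to 1388) and Gm28928 (95.8, others 118 to 122). DEX-treated AS mouse 38 had the lowest normalized count of its group in AI115009 (99.7, others 121 to 122), Gm17322 (151, others 175 to 178) and Gm43672 (269.5, others 314 to 322). Saline-treated PS mouse 68 had the highest normalized count of its group in Dubr (145, others 130.1 to 131), Gm3764 (4122, others 2975 to 3118) and Meg3 (138096, others 103681 to 108929). Saline-treated AS mouse 44 had the highest normalized count of its group in Gas5 (2164, others 1474 to 1557), Malat1 (63979, others 23956 to 25611) and Zfas1 (422, others 309 to 328), and the lowest in Rab10os (579, others 833 to 862). DEX-treated AS mouse 60 had the highest normalized count of its group in Malat1 (84901, others 27396 to 35411) and Meg3 (135106, others 96776 to 98817). A single mouse lay above the others of its group in Gm15624 (145 in DEX-treated PS mouse 56, others 112 to 115), Gm17322 (145 in saline-treated AS mouse 40, others 105 to 105) and Gm40578 (185 in DEX-treated control mouse 101, others 118 to 128). The same held for Gm40578 (196 in saline-treated PS mouse 2, others 165 to 168), Jpx (255 in DEX-treated control mouse 112, others 213 to 217) and Tug1 (2541 in DEX-treated PS mouse 52, others 2065 to 2127). A single mouse lay below the others of its group in 6530402F18Rik (238 in saline-treated control mouse 117, others 329 to 347), Gm37885 (157 in saline-treated control mouse 107, others 196 to 201) and Zfas1 (386 in DEX-treated PS mouse 6, others 429.8 to 433). What set these mice apart was not tested.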

How the results depend on the processing

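Counts of called members and the differences of named members were recomputed under each alternative that applied, the members in the comparisons for which they are named. A fit of only the groups compared is no alternative for DEX over the 3 phenotypes, which uses all groups. Of the recomputed differences, over 77 results, 2322 kept their direction and their side of the threshold, 14 gained a call, 136 lost one and 31 changed direction. Those 31 all concern DEX over the 3 phenotypes in 7 members that were not called in any of these fits, with log2 differences close to 0. With quantile normalization Jpx was at 0.0200 and Tug1 at -0.00952. Without PS mice 2 and 62 Bc1 was at -0.0191, Jpx at 0.0101, Meg3 at -0.0159 and Tug1 at -0.00664, and without AS mice 44 and 60 Meg3 was at -0.0176. With 1 library left out the differences ran from -0.0154 to 0.0673 in 1700020I14Rik, -0.0302 to 0.170 in Bc1, -0.0358 to 0.0176 in Jpx, -0.0266 to 0.0678 in Meg3, -0.0817 to 0.0111 in Miat, -0.0126 to 0.0396 in Rian and -0.0236 to 0.0444 in Tug1. No paired analysis was possible because mouse numbers do not recur between groups.

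Counts that changed by over 1.5 times were as follows. With only the groups compared, 8 members were called with DEX in AS, 8 in PS against control and 1 in AS against control. By edgeR 5 were called in PS against control. By DESeq2 6 were called in PS against control, 1 in AS against control and 1 for the difference in DEX response between AS and control. Without PS mice 2 and 62 the counts were 4 with DEX in PS and 0 in PS against control, and without AS mice 44 and 60 they were 8 in PS against control and 1 for the response of AS against control. The cause of these changes was not tested, beyond the fewer samples that some of these fits hold.

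With 1 library left out at a time the count ran from 34 to 45 with DEX over the 3 phenotypes, from 8 to 16 with DEX in controls, 6 to 22 in PS mice and 9 to 29 in AS mice. It ran from 0 to 5 in PS against control, from 0 to 1 in AS against control (1 in 6 fits, without control mouse 101 or 112, PS mouse 2, 34 or 52, or AS mouse 72), and from 0 to 4 for the difference in response between AS and control. It was 0 in each of these fits for AS against PS and for the other interactions. Calls over all genes are not given for these fits.

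Depth limits members least at the top of the list: the lowest value of any member in any library rests on 21 reads. With 4 mice per group an exact permutation test of 1 member cannot give a two-sided p below 0.0286, so members were called by a model over all genes. Each library stands for 1 mouse, the PFC block holds many cell types, and mature miRNAs and snoRNAs were not measured.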

Other observations

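Below the mean of 100, 517 further genes were classed as lncRNA, of which 47 were called with DEX over the 3 phenotypes by limma (9.09%), 24 of them higher and 23 lower. The 517 include the left-out rows 9330121J05Rik, which was among those called higher, and Gm4876, which was not called. Of all genes 15.5% were called.

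In 2 members, chosen after their values were seen, DEX and saline groups were apart in opposite directions in controls and in PS mice. How many of all genes do so was not counted, so this count has no background. 4930570G19Rik had 363, 379, 386 and 391 normalized counts with saline and 404, 420.5, 437 and 460.1 with DEX in controls. In PS mice it had 428, 429, 431 and 515 and 338, 388, 404 and 420.0. Kcnmb4os2, antisense to a subunit gene of the BK potassium channel, had 114, 119, 119.7 and 124 with saline and 79.0, 83.6, 96.5 and 108 with DEX in controls, and 97.8, 99.4, 103 and 107 and 108, 108, 109 and 149 in PS mice. The differences between the responses were -0.40 and 0.58, and neither passed the threshold (limma adjusted p = 0.367 and 0.423).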
